A study of Mus musculus with 6 samples.

Results

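Oxidative phosphorylation genes were examined in the hippocampus of 6-month-old 5xFAD mice and their WT littermates. The genes were chosen by symbol, taking every row of the count table that begins with Nduf, Uqcr, Atp5 or mt-, that begins with Cox4 to Cox8, or that is Sdha, Sdhb, Sdhc or Sdhd. This gave 95 genes of 18263 in the table, with 35 for complex I, 4 for complex II, 8 for complex III, 18 for complex IV, 16 for complex V, 9 for assembly factors and 5 encoded by mitochondrial DNA. The 5xFAD mice overexpress human amyloid precursor protein with the Swedish, Florida and London mutations and a mutant human presenilin-1 under the neuronal Thy-1 promoter, on a C57BL/6J background, and the WT mice carry neither transgene. Both genotypes were 6 months old and untreated as far as the labels say. Each genotype was represented by 3 libraries labelled as replicates, made from total RNA after removal of rRNA. The replicate labels do not say whether each library came from a single mouse. Each level is a CPM value, a count divided by the scaled size of its library, and each mean is followed by the SD of 3 libraries. A log2 difference is the level in 5xFAD over that in WT, given ± its standard error, and a call means an adjusted p under 0.05 in the edgeR quasi-likelihood test across all genes. Of the 95 genes, 88 had enough counts to be tested, 83 of them nuclear.

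Oxidative phosphorylation is carried out in the inner mitochondrial membrane by a chain of protein complexes. Complex I oxidises NADH, complex II oxidises succinate, complex III passes electrons from ubiquinol to cytochrome c, and complex IV hands them to oxygen. Complexes I, III and IV pump protons, and complex V, the ATP synthase, uses the proton gradient to make ATP. Most subunits are encoded in the nucleus and imported, while a few core subunits are transcribed from mitochondrial DNA as long polycistronic RNAs. Neurons depend heavily on this pathway for synaptic transmission.

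Total counts were 8.45 to 12.6 M per library. Cell type content was checked with marker lists, which hold no gene chosen for the hippocampus itself. All 10 neuronal markers, among them Snap25, Camk2a and Rbfox3, were detected in every library. Their summed level was 12120 CPM in WT replicate 3 and 17239 to 20839 CPM in the other 5 libraries, a sum carried mainly by Camk2a. Camk2a, Slc17a7 and Rbfox3 were lowest in WT replicate 3, while Snap25, Gad1, Gad2 and Stmn2 were highest there. Microglial markers summed to 152 to 251 CPM in WT and 685 to 767 CPM in 5xFAD, with 4 of 9 tested genes called higher. Of the 5 muscle markers, Ckm had no count in any library and the sum was at most 8.08 CPM. WT replicate 3 stood apart from the other 5 libraries, and over all genes its deviation moved with transcript GC content. The comparison is therefore given with and without it. In bulk tissue, fewer cells of a type and less RNA per cell cannot be told apart.

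The sequences of the mitochondrial transcripts bear on how their counts can be read, because the mouse nuclear genome holds a copy of part of the mitochondrial DNA. In the GENCODE annotation on GRCm38, 4 of the 5 transcripts were matched to unprocessed pseudogenes that lie side by side on the minus strand of chromosome 1. The first bases of each pair are shown, with the only difference found over these matches in capitals.
mt-Co3: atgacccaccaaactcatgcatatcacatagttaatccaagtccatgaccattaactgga
Gm28437: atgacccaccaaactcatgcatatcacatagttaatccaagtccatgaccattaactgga
mt-Nd3: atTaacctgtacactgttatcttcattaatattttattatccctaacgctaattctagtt
Gm28438: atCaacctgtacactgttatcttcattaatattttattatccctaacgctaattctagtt
mt-Nd4l: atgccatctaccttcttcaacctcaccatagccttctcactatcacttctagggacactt
Gm10222: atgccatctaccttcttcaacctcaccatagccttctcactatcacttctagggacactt

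The mt-Co3 transcript, a core subunit of complex IV at chrM:8607-9390, was identical to Gm28437 at chr1:24613189-24613971 over 783 of its 784 bases. The mt-Nd3 transcript, a core subunit of complex I at chrM:9459-9806, differed from Gm28438 at chr1:24612775-24613119 only by T3C over 345 aligned bases, counting from 1 at the first base of the transcript. The mt-Nd4l transcript, at chrM:9877-10173, was identical to Gm10222 at chr1:24612407-24612700 over 294 bases. For these genes most stretches of the transcript have an equal match in the nucleus.

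For mt-Nd4, at chrM:10167-11544, the copy Gm28439 at chr1:24611535-24612410 was identical over the first 876 bases and then ended. The bases around that end are shown with those beyond the copy in capitals, and the start of mt-Nd5, at chrM:11742-13565, is shown wholly in capitals because no stretch of 100 bases of it was found in another annotated transcript.
mt-Nd4: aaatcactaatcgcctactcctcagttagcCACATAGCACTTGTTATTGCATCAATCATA
Gm28439: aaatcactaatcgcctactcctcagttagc
mt-Nd5: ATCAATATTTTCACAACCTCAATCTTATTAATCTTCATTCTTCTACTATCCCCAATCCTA

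Levels per length differed along the same division. Over the 6 libraries mt-Nd4 stood at 4582 CPM per kb of transcript and mt-Nd5 at 1147 CPM per kb. By contrast mt-Nd4l was at 107, mt-Nd3 at 104 and mt-Co3 at 48.5 CPM per kb. Stretches of 100 bases shared with another annotated transcript made up 99.9% of mt-Co3, 98.5% of mt-Nd4l, 97.6% of mt-Nd3, 60.8% of mt-Nd4 and 0% of mt-Nd5. The part of the shared sequence in the levels was not tested, and for the shared bases mitochondrial and nuclear transcripts cannot be told apart. No other row of the count table begins with mt-, so the remaining protein-coding genes of mitochondrial DNA were not analysed here.

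The comparison of genotypes asked which oxidative phosphorylation genes differed in 5xFAD hippocampus, and mt-Co3 was the only one of the 88 tested that was called with all 6 libraries. It rose 2.99-fold. Its level was 21.0, 19.7 and 16.3 CPM in WT replicates 1, 2 and 3, and 52.4, 65.9 and 52.7 CPM in 5xFAD replicates 1, 2 and 3. Every 5xFAD library lay above every WT library, and WT replicate 3 was close to the other WT libraries. The means were 19.0 ± 2.45 CPM in WT and 57.0 ± 7.70 CPM in 5xFAD (SD, n = 3). The log2 difference was 1.58 ± 0.20 with an edgeR adjusted p of 0.0102, and 1.49 ± 0.15 without WT replicate 3 with an edgeR adjusted p of 9.3e-06. One member called higher of 88 compares with 0.656% of all 12952 genes tested. The call was lost when any single 5xFAD library was left out, with edgeR adjusted p of 0.0718, 0.0978 and 0.0898 without 5xFAD replicates 1, 2 and 3, while the log2 difference stayed at 1.46 or more. Since nearly all of its sequence is shared with Gm28437, the origin of these counts was not tested. Microglial markers and the astrocyte marker Gfap were higher in the same 3 libraries, and their part in this rise was not tested. Of 7 tested astrocyte markers only Gfap was called with all 6 libraries, and 3 of the 7 had a negative log2 difference.

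No member was called lower with all 6 libraries, as for all genes, where 0.0% were called lower by edgeR. At an unadjusted p under 0.05, 2 members and 231 of all genes were lower, the members being mt-Nd3 and Atp5k, and DESeq2 called 0 members and 9 of all genes lower. mt-Nd3 stood at 39.7, 54.7 and 37.0 CPM in WT replicates 1, 2 and 3, and at 24.9, 36.0 and 24.8 CPM in 5xFAD replicates 1, 2 and 3. All 5xFAD libraries lay below all WT libraries, but 5xFAD replicate 2 came within about 1 CPM of WT replicate 3. Its log2 difference was -0.62 ± 0.24 with an edgeR adjusted p of 0.692. Without WT replicate 3 it was -0.72 ± 0.18 with an edgeR adjusted p of 0.039, and mt-Nd3 was then the only member called lower. In that fit 0.501% of 13376 genes were called lower and 2.39% higher, and mt-Co3 again was the only member called higher. When transcript GC content was also corrected for, mt-Nd3 was not called, at -0.71 with an edgeR adjusted p of 0.0515, and mt-Nd4l was, at -1.16 with an edgeR adjusted p of 0.047.

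The other mitochondrial transcripts of complex I did not pass the test in either fit. mt-Nd4l was at 28.6, 76.97 and 11.6 CPM in WT replicates 1, 2 and 3, and at 36.3, 18.8 and 18.5 CPM in 5xFAD replicates 1, 2 and 3. The WT libraries spanned the whole range of the 5xFAD libraries. For mt-Nd4l this gave a log2 difference of -0.68 ± 0.59, and -1.11 ± 0.31 without WT replicate 3 with an edgeR adjusted p of 0.0665. mt-Nd4, the most abundant member, was at 6624, 10321 and 2853 CPM in WT replicates 1, 2 and 3, and at 6442, 6599 and 5043 CPM in 5xFAD replicates 1, 2 and 3. mt-Nd5 was at 2167, 2953 and 1322 CPM in WT and at 1935, 2225 and 1953 CPM in 5xFAD in the same order. In both genes WT replicate 2 was highest and WT replicate 3 lowest, with the 5xFAD libraries between them. Their log2 differences were -0.13 ± 0.43 for mt-Nd4 and -0.08 ± 0.30 for mt-Nd5, and -0.49 ± 0.14 and -0.32 ± 0.11 without WT replicate 3, with edgeR adjusted p of 0.0713 and 0.148.

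**Figure D1:**
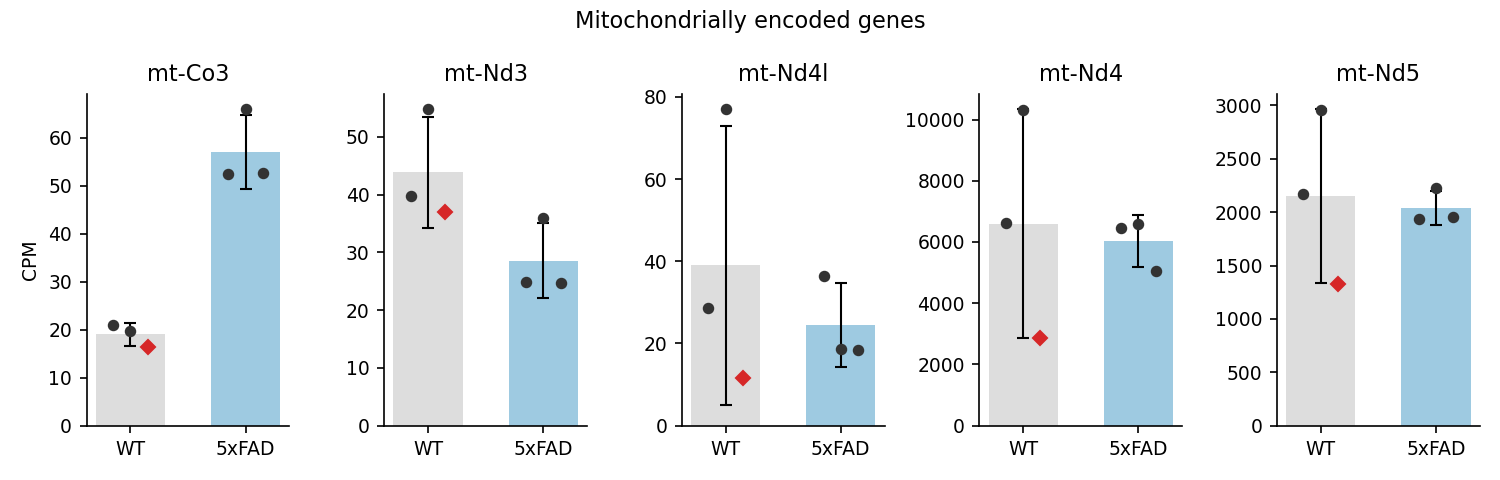
CPM of the 5 mitochondrially encoded genes in WT and 5xFAD, with bars for the mean, error bars for the SD over 3 libraries and points for single libraries. The red diamond is WT replicate 3, which is lowest in every panel except mt-Nd3, and only in mt-Co3 and mt-Nd3 do the genotypes not overlap.

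Ratios within the mitochondrial transcripts do not depend on how libraries are scaled. Reads of mt-Co3 were 0.971, 0.669 and 1.23% of those of mt-Nd5 in WT replicates 1, 2 and 3, and 2.71, 2.96 and 2.70% in 5xFAD replicates 1, 2 and 3. Reads of mt-Nd3 were 1.83, 1.85 and 2.80% of those of mt-Nd5 in WT, and 1.29, 1.62 and 1.27% in 5xFAD, in the same order. Neither ratio overlapped between genotypes, as for the CPM of mt-Co3 and mt-Nd3. Reads of mt-Nd4 for each read of mt-Nd5 did overlap, at 2.903 ± 0.682 in WT and 2.959 ± 0.374 in 5xFAD (SD, n = 3). Reads of mt-Nd4l overlapped too, at 1.601 ± 0.898% of those of mt-Nd5 in WT and 1.22 ± 0.569% in 5xFAD. In CPM, 8.42% of all genes tested had every 5xFAD library above every WT library, and 6.35% had every one below. There were 0.444 ± 0.084 reads of mt-Co3 for each read of mt-Nd3 in WT and 2.02 ± 0.17 in 5xFAD (SD, n = 3). That ratio sets a gene higher in all 5xFAD libraries against one lower in all, so its separation follows from their CPM values. The 5 genes together took 0.862 ± 0.357% of all counts in WT and 0.802 ± 0.089% in 5xFAD, a difference of -0.0599 percentage points that was smaller than the SD in either group. It was -0.235 points without WT replicate 3 and 0.122 points without WT replicate 2. That share was 0.512% in WT replicate 3, 0.848 and 1.23% in WT replicates 1 and 2, and 0.708 to 0.885% in 5xFAD.

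For nuclear-encoded members the log2 differences were mostly negative with all 6 libraries and centred near 0 without WT replicate 3. No nuclear member was called in either fit. Over all genes tested the shares called were 0.656% higher and 0.0% lower with all libraries. They were 2.39% higher and 0.501% lower without WT replicate 3. With all 6 libraries 73 of 83 tested nuclear members had a negative log2 difference and their median was -0.37, against -0.02 over all genes tested. Without WT replicate 3 the median was 0.04 and 50 of 85 were positive, against 0.01 over all genes. The summed level of nuclear members was 2822 and 2733 CPM in WT replicates 1 and 2, 4651 CPM in WT replicate 3, and 2679, 2824 and 2776 CPM in 5xFAD replicates 1, 2 and 3. WT replicate 3 was thus the single library out of range. No nuclear member had all 5xFAD libraries above all WT libraries, a pattern that 8.42% of all genes tested showed. WT replicate 3 was the highest library in 63 of 83 nuclear members, and such genes cannot show that pattern. All 5xFAD libraries lay below all WT libraries in 5 of 83 nuclear members, Atp5k, Cox7c, Ndufaf6, Ndufb7 and Uqcrh. This is 6.02% against 6.35% of all genes tested.

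**Figure D2:**
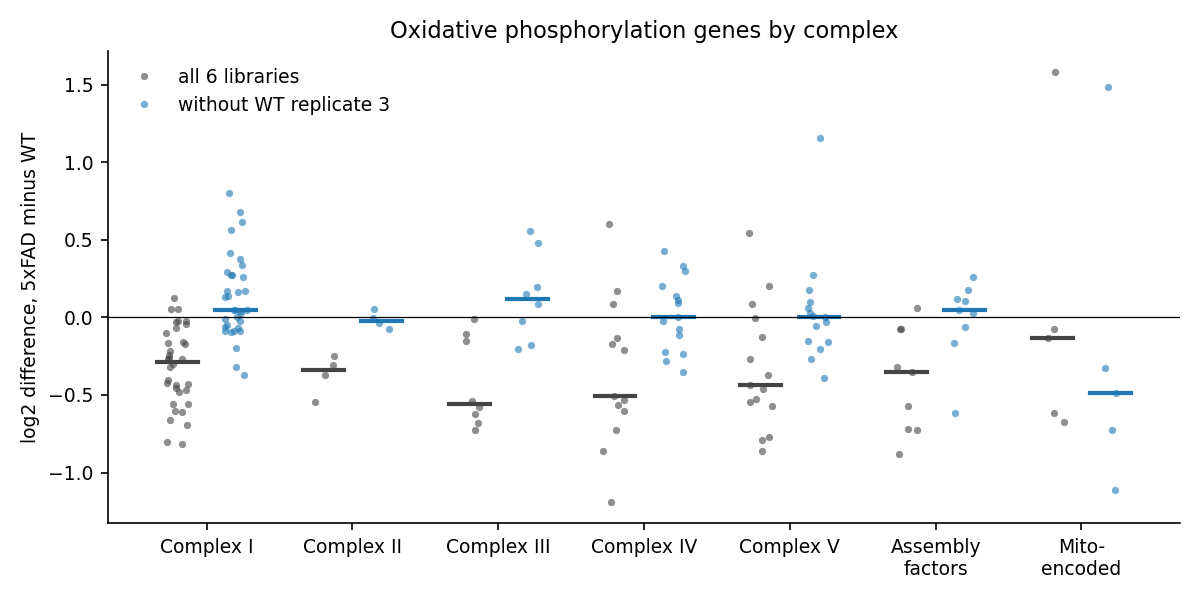
Log2 difference, 5xFAD minus WT, of each tested member by complex, in the fit of all 6 libraries (grey) and without WT replicate 3 (blue), with horizontal bars for the median. The grey medians of complexes I to V lie between -0.56 and -0.29 and the blue ones between -0.02 and 0.12, while the highest points, near 1.5, are mt-Co3.

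In each of the 5 complexes WT replicate 3 had the highest summed level, and the order of the other libraries varied. The median log2 difference was -0.29 for complex I, -0.34 for complex II, -0.56 for complex III, -0.51 for complex IV and -0.44 for complex V with all 6 libraries. Without WT replicate 3 it was 0.05, -0.02, 0.12, 0.00 and 0.00. With all 6 libraries kept, the median of complex IV was -0.26 with no filter on low counts, -0.23 by limma-voom and -0.27 after GC correction, and limma-voom gave -0.28 for complex III and -0.18 for complex I. The summed level of WT replicate 3 was 1347 CPM for complex I against 825 to 870, 389 for complex II against 229 to 250, and 422 for complex III against 203 to 240. For complex IV it was 688 against 418 to 485 CPM, and for complex V 1698 against 899 to 975 CPM. The other WT libraries and the 5xFAD libraries overlapped in every complex.

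**Figure D3:**
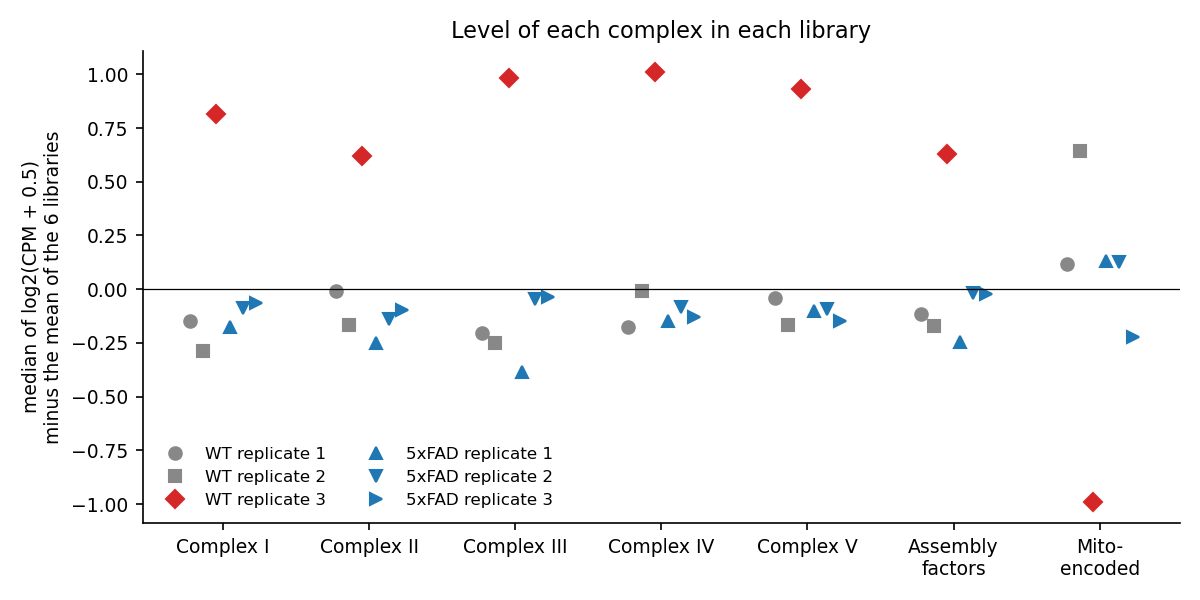
Level of each complex in each library, as the median over tested members of log2(CPM + 0.5) minus the mean of the 6 libraries. WT replicate 3 (red diamonds) lies 0.62 to 1.01 above the mean in the nuclear groups and 0.99 below it in the mitochondrially encoded group, with the other libraries close together in the nuclear groups.

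WT replicate 3 was the highest of the 6 libraries in 63 of 83 tested nuclear members (75.9%), against 37.9% of all genes tested. Its level over the mean of the other 5 libraries, on the log2(CPM + 0.5) scale, had a median of 1.01 in nuclear members and 0.03 in all genes. It was the lowest library in 4 of the 5 mitochondrially encoded genes, where the median was -1.19. Transcript GC content moved with this excess, with a Spearman correlation of -0.44 across 83 nuclear members, which share the same libraries. The median excess was 1.25 in 13 members under 45% GC, 1.11 in 23 members from 45 to 50%, 0.82 in 27 members from 50 to 55% and 0.29 in 20 members of 55% and over. In all genes tested the medians in the same ranges were 0.79, 0.32, -0.14 and -0.67, so that nuclear members stood above all genes in each range. The mitochondrially encoded genes had a median GC content of 37.1%, and 4 of the 5 ran against this trend. Correction for GC content left the median log2 difference of nuclear members at -0.39 with WT replicate 3, against -0.065 over all genes tested. Without WT replicate 3 the corrected medians were -0.04 in nuclear members and -0.067 over all genes.

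**Figure D4:**
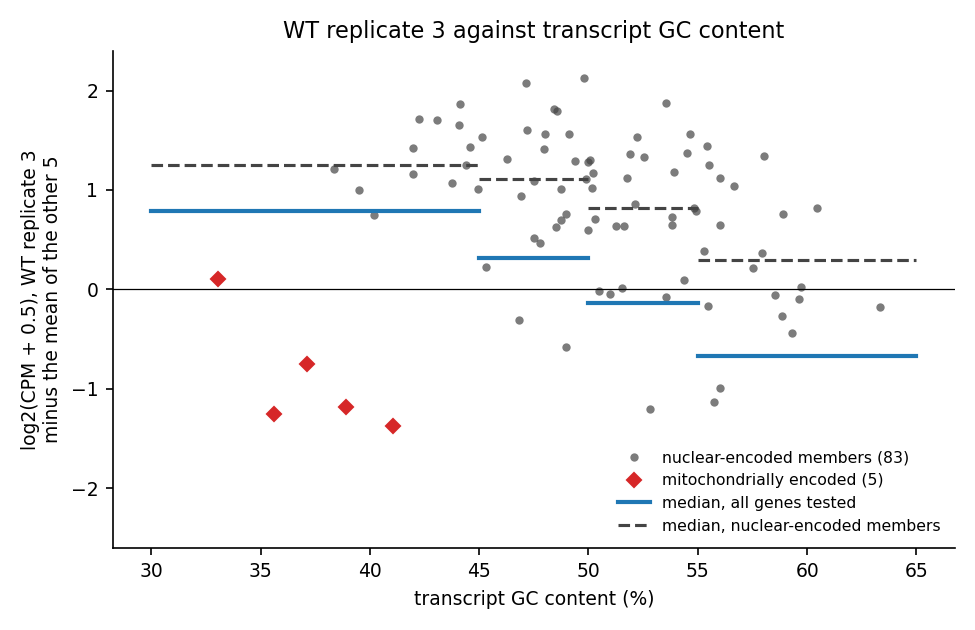
Level of WT replicate 3 minus the mean of the other 5 libraries, log2(CPM + 0.5), against transcript GC content in percent, for 83 nuclear-encoded members (grey) and 5 mitochondrially encoded genes (red). Lines give medians in 4 ranges of GC content, where nuclear members (dashed) lie above all genes tested (blue) in every range, and 4 of the 5 mitochondrially encoded genes lie below 0.

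In complex I, 31 of 34 tested nuclear members had a negative log2 difference with all libraries and 12 without WT replicate 3. Ndufv2 and Ndufs4 had the smallest p. Ndufv2, an iron-sulfur subunit of the NADH-oxidising module, stood at 30.5, 33.2 and 68.8 CPM in WT replicates 1, 2 and 3, and at 26.8, 33.4 and 29.6 CPM in 5xFAD replicates 1, 2 and 3. Its log2 difference was -0.56 ± 0.32 with all libraries and -0.08 ± 0.15 without WT replicate 3. Ndufs4, whose loss causes Leigh-like encephalopathy in mice, stood at 12.2, 11.8 and 40.9 CPM in WT and at 11.5, 12.5 and 13.1 CPM in 5xFAD. In both genes only WT replicate 3 left a narrow common range. For Ndufs4 the log2 difference was -0.80 ± 0.46, and 0.05 ± 0.21 without WT replicate 3.

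Ndufc1, a small accessory subunit, had the largest negative value of complex I at -0.82 ± 0.62, and 0.14 ± 0.42 without WT replicate 3. Ndufa6, an accessory subunit of the LYR family, was among the 3 members that WT replicate 3 moved down most. It stood at 10.5, 8.17 and 43.9 CPM in WT replicates 1, 2 and 3, and at 12.8, 11.6 and 16.7 CPM in 5xFAD replicates 1, 2 and 3. WT replicates 1 and 2 were the lowest of the 6, and WT replicate 3 was the highest by a wide margin. Its log2 difference went from -0.60 to 0.56, with edgeR adjusted p of 0.84 and 0.28. Ndufa5 had the most positive value, 0.13 ± 0.73, on 2 to 22 counts a library.

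The 2 most abundant nuclear members of complex I per length did not share the excess of WT replicate 3. Ndufb10, an accessory subunit of the membrane arm, stood at 99.7, 112 and 90.4 CPM in WT replicates 1, 2 and 3, and at 108, 95.7 and 93.4 CPM in 5xFAD replicates 1, 2 and 3. Ndufv3, an accessory subunit of the NADH-oxidising module, stood at 123, 133 and 56.0 CPM in WT and at 105, 113 and 90.2 CPM in 5xFAD. Both genes had their lowest value in WT replicate 3. The log2 difference was -0.02 ± 0.17 for Ndufb10 and -0.02 ± 0.30 for Ndufv3, and -0.32 ± 0.11 for Ndufv3 without WT replicate 3 with an edgeR adjusted p of 0.18.

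In complex II, the only complex with no mitochondrially encoded subunit, all 4 members had a negative log2 difference with all libraries and 3 did without WT replicate 3. Sdha, the flavoprotein, was the most abundant at 179, 186 and 281 CPM in WT replicates 1, 2 and 3, and at 172, 191 and 180 CPM in 5xFAD replicates 1, 2 and 3. Sdhb, the iron-sulfur subunit, stood at 29.9, 27.9 and 48.5 CPM in WT and at 24.4, 30.01 and 27.6 CPM in 5xFAD. Sdhd, a membrane anchor, stood at 10.1, 5.79 and 20.1 CPM in WT and at 6.57, 7.74 and 10.3 CPM in 5xFAD. All 3 genes were highest in WT replicate 3 and overlapped between genotypes otherwise. Log2 differences were -0.25 ± 0.21, -0.37 ± 0.25 and -0.54 ± 0.44, and -0.00 ± 0.09, -0.07 ± 0.16 and 0.06 ± 0.30 without WT replicate 3.

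In complex III all 8 members had a negative log2 difference with all libraries, and 3 did without WT replicate 3. Uqcrh, the hinge protein that binds cytochrome c1, stood at 32.0, 33.6 and 65.5 CPM in WT replicates 1, 2 and 3, and at 25.3, 31.2 and 28.8 CPM in 5xFAD replicates 1, 2 and 3. The genotypes did not overlap, although 5xFAD replicate 2 lay just under WT replicate 1. The log2 difference was -0.62 ± 0.29 with an edgeR adjusted p of 0.81, and -0.20 ± 0.15 without WT replicate 3. Uqcrc2, a core protein, gave -0.68 ± 0.33 and then -0.18 ± 0.16, and Uqcrb, a ubiquinone-binding subunit, gave -0.73 ± 0.50 and then 0.15 ± 0.25. Uqcrc1, the other core protein, was steady at 76.97 to 99.1 CPM in WT and 79.2 to 93.2 CPM in 5xFAD, with a log2 difference of -0.01 ± 0.17.

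Complex IV members ranged from -1.19 to 0.60 in log2 difference with all libraries and from -0.35 to 0.43 without WT replicate 3. Cox6c, an accessory subunit, stood at 31.2, 28.1 and 144 CPM in WT replicates 1, 2 and 3, and at 37.0, 33.8 and 40.9 CPM in 5xFAD replicates 1, 2 and 3. Cox7a2l, a paralogue of Cox7a2, stood at 3.12, 3.03 and 14.5 CPM in WT and at 2.60, 1.99 and 4.30 CPM in 5xFAD. In both genes WT replicate 3 was far above every other library. Their log2 differences were -0.86 ± 0.56 and -1.19 ± 0.65 with all libraries, and 0.33 ± 0.15 and -0.03 ± 0.46 without WT replicate 3. Cox7b, a small subunit encoded on the X chromosome, stood at 19.99, 25.2 and 58.1 CPM in WT and at 20.3, 19.6 and 22.4 CPM in 5xFAD, with a log2 difference of -0.73 ± 0.38 and -0.11 ± 0.17 without WT replicate 3. None of these passed the test in either fit.

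Several complex IV subunits have isoforms known from other tissues, and in each pair measured the common form was far above the tissue form. Per kb of the longest coding transcript, Cox4i1 stood at 93.0 CPM per kb and Cox4i2, the form of lung, at 1.10. Cox6a1 stood at 151 CPM per kb and the heart and muscle form Cox6a2 at 8.57, and Cox6b1 at 78.3 against 2.98 for the testis form Cox6b2. Cox7a2 stood at 16.6 CPM per kb and the heart and muscle form Cox7a1 at 0.942, and Cox8a at 181 against 1.99 for the heart and muscle form Cox8b. Cox7b stood at 27.6 CPM per kb against 0.157 for Cox7b2, and Ndufa4, a complex IV subunit despite its name, at 19.3 against 0.763 for Ndufa4l2. In every pair the common form was the higher in each of the 6 libraries.

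None of the tested isoforms was called in either fit. Cox6a2 stood at 5.11, 6.25 and 2.48 CPM in WT replicates 1, 2 and 3, and at 8.18, 8.09 and 4.86 CPM in 5xFAD replicates 1, 2 and 3. It was lowest in WT replicate 3, and 5xFAD replicate 3 lay within the WT range. Its log2 difference of 0.60 ± 0.41, and 0.30 ± 0.32 without WT replicate 3, did not pass the test, and the first of these was the most positive of complex IV with all libraries. Cox6b2 was at 0.572 CPM in WT replicate 3 and 1.04 to 3.31 CPM elsewhere. Cox4i1 was highest in WT replicate 3, at 144 CPM against 48.4 to 65.1 in the other 5, and so was Cox7a2, at 22.6 CPM against 6.84 to 10.5. Cox6a1, Cox6b1 and Cox8a did not show this, with log2 differences of 0.09 ± 0.19, -0.21 ± 0.20 and -0.17 ± 0.16. Ndufa4 stood at 4.93 and 9.46 CPM in WT replicates 1 and 2, 27.4 CPM in WT replicate 3 and 8.30 to 10.8 CPM in 5xFAD. Cox4i2, Cox7a1, Cox7b2, Cox8b and Ndufa4l2 had too few counts to be tested with all libraries.

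**Figure D5:**
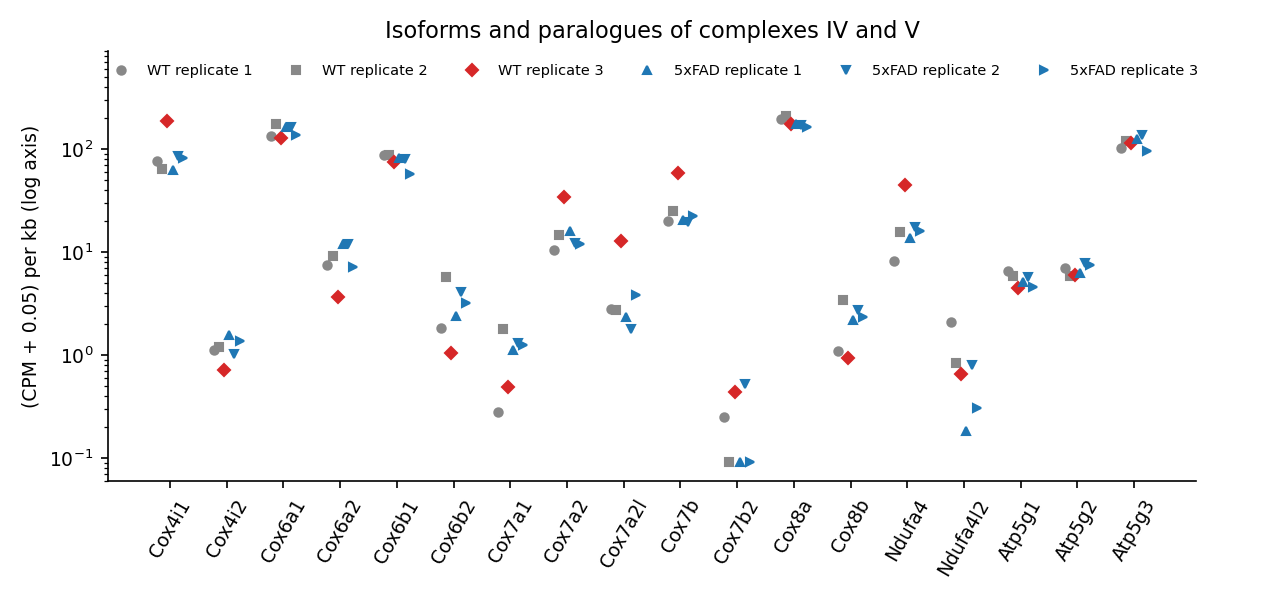
Level of isoforms and paralogues of complexes IV and V in each library, as CPM plus 0.05 per kb of transcript on a log axis, with one symbol per library. The common forms Cox4i1, Cox6a1, Cox6b1 and Cox8a lie far above Cox4i2, Cox6a2, Cox6b2 and Cox8b, and WT replicate 3 (red diamonds) is the highest point in Cox4i1, Cox7a2, Cox7a2l, Cox7b and Ndufa4.

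In complex V, 12 of 15 tested members had a negative log2 difference with all libraries and 7 without WT replicate 3. Atp5k, the e subunit of the membrane part, had the smallest unadjusted p of the nuclear members. It stood at 26.0, 27.4 and 51.3 CPM in WT replicates 1, 2 and 3, and at 16.7, 18.8 and 24.9 CPM in 5xFAD replicates 1, 2 and 3. The genotypes did not overlap, with 5xFAD replicate 3 just under WT replicate 1. The log2 difference was -0.79 ± 0.31 with an edgeR adjusted p of 0.692, and -0.39 ± 0.18 without WT replicate 3 with an edgeR adjusted p of 0.34. Atp5f1, the b subunit of the peripheral stalk, stood at 35.1, 33.5 and 93.5 CPM in WT and at 27.0, 28.1 and 33.9 CPM in 5xFAD, with a log2 difference of -0.86 ± 0.38 and -0.20 ± 0.15 without WT replicate 3.

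Atp5b, the catalytic beta subunit, stood at 158 CPM per kb, below only Cox8a among nuclear members. It stood at 297, 266 and 433 CPM in WT replicates 1, 2 and 3, and at 262, 280 and 283 CPM in 5xFAD replicates 1, 2 and 3. Apart from WT replicate 3 the libraries spanned a narrow range, and the log2 difference was -0.27 ± 0.22, or -0.03 ± 0.09 without it. The genes Atp5g1, Atp5g2 and Atp5g3 encode the same c-ring protein with different import sequences. Atp5g3 was the most abundant at 116 CPM per kb, Atp5g2 stood at 6.71, and Atp5g1 at 5.40 over a longest transcript of 4715 bases, which makes that value low. None of the 3 was highest in WT replicate 3, and their log2 differences were -0.13 ± 0.22, 0.21 ± 0.30 and 0.09 ± 0.19 for Atp5g1, Atp5g2 and Atp5g3. Atp5l, the g subunit, had the most positive value of complex V, 0.55 ± 0.60, on 6 to 16 counts a library, and 69.0% of its 100-base stretches were shared with copies elsewhere. Its annotated copy Atp5l-ps1 had 0 to 4 counts and was not tested.

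The assembly factors build complexes I and V without being part of them, and 8 of 9 members had a negative log2 difference with all libraries and 3 without WT replicate 3. Ndufaf6 stood at 4.41, 3.67 and 4.86 CPM in WT replicates 1, 2 and 3, and at 1.73, 2.70 and 3.34 CPM in 5xFAD replicates 1, 2 and 3. It was one of the few members whose difference did not rest on WT replicate 3. Its log2 difference was -0.72 ± 0.39 with all libraries and -0.62 ± 0.43 without it, with edgeR adjusted p of 0.81 and 0.58. Ndufaf5 was at 19.2 CPM in WT replicate 3 and 4.21 to 8.44 CPM elsewhere, with -0.88 ± 0.49 and then -0.17 ± 0.34. Ndufaf2, the most abundant per length at 12.6 CPM per kb, gave -0.08 ± 0.29, but 65.6% of its exons overlap an antisense gene, and Atp5sl gave 0.06 ± 0.21.

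Further genes of the pathway and of mitochondria were grouped in lists. No gene was called in either direction, with or without WT replicate 3, in any of 10 lists of further genes, which held 1 to 21 tested genes each. Over all genes tested, 0.656% were called higher and 0.0% lower with all libraries. Without WT replicate 3 these shares were 2.39% and 0.501%. Complex IV assembly factors had 2 of 14 tested genes with a positive log2 difference with all libraries and 7 of 15 without WT replicate 3, and their medians were -0.30 and -0.03. Cox15, which makes heme a, gave 0.42 and 0.40 in the fits with and without WT replicate 3, and Coa3 gave -0.89 and -0.24. Subunits and associated proteins whose symbols fall outside the rule, among them Cyc1 (cytochrome c1) and Higd1a, had a median of -0.81 and then -0.12. Other mitochondrial proteins, such as the import receptor Tomm20 and the chaperone Hspd1, summed to 1996 CPM in WT replicate 3 and 1160 to 1217 CPM in the other 5 libraries. Electron carriers and ubiquinone synthesis had a median of -0.25 and then -0.03, with Cycs (cytochrome c) at -0.63 and then -0.06.

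Genes for expression of mitochondrial DNA had a median of -0.11 with all libraries and 0.14 without WT replicate 3, with 7 and 13 of 18 positive. Ssbp1, which binds single-stranded mitochondrial DNA, gave -0.80 and then -0.25. Nuclear regulators of respiratory genes had a median log2 difference of 0.08 and then 0.05. In WT replicate 3 they did not move one way, since Yy1 and Ppargc1b were lowest there, at 120 and 61.6 CPM, and Creb1 was highest there, at 56.6 CPM. Esrrg, an estrogen-related receptor that activates respiratory genes, gave -0.44 and then -0.39, and Gabpb1, a subunit of the ETS-type factor NRF-2, gave -0.98 and then -0.71. Assembly factors of complexes I, III and V had medians of -0.35, -0.48 and -0.19 with all libraries, and -0.06, -0.20 and -0.12 without WT replicate 3, and of the complex II factors only Sdhaf1 was tested.

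Promoters were examined because NRF-1 and the ETS-type factor NRF-2 are known regulators of many respiratory genes. RefSeq promoter windows on GRCm38.p6, from 250 bases before to 50 bases after the start, were matched by gene ID for 74 of the 95 genes. The NRF-1 motif, searched as GCGC, an A, any base and GCGC on either strand, was found in 18 of them, or 24.3%, against 5.19% of 27025 genes with a window. It was found in 6 of 31 windows of complex I, 2 of 3 of complex II, 1 of 5 of complex III, 1 of 13 of complex IV and 6 of 14 of complex V. The ETS motif CCGGAAG or CTTCCGG was found in 17 of them, or 23.0%, against 9.93% of all genes, and 4 genes held both motifs. The motifs are different words, so that a match to one is not a match to the other. The 27025 genes include genes outside the count table of 18263 and were not matched to the members in level or GC content. The shares therefore compare unlike sets. A match says only that these letters are present.

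The members with an NRF-1 match before the start and the highest level per length are shown, with the NRF-1 match alone in capitals. Each of the pair also holds 1 ETS match, left in lower case. Cox6a1 had NRF-1 matches beginning 162 and 117 bases before the start, in chr5:115348959-115349208 on the minus strand, and Atp5h, a stalk subunit of complex V, had an NRF-1 match 141 bases before it, in chr11:115419920-115420169 on the minus strand.
Cox6a1: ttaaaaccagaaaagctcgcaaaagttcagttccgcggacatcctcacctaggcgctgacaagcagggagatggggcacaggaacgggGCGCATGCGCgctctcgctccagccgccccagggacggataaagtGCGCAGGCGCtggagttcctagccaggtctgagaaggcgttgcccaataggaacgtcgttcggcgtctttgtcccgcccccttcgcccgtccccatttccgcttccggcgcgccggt
Atp5h: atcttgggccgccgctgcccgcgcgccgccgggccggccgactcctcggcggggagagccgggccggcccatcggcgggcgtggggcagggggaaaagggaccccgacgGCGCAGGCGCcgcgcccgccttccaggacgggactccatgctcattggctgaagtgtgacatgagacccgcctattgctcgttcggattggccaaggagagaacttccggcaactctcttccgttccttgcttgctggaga

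These genes differed in their values although both hold the NRF-1 letters. Atp5h stood at 40.7, 41.2 and 102 CPM in WT replicates 1, 2 and 3, and at 37.8, 45.5 and 44.4 CPM in 5xFAD replicates 1, 2 and 3. Cox6a1 stood at 76.3, 101 and 73.0 CPM in WT and at 94.2, 93.7 and 78.0 CPM in 5xFAD. WT replicate 3 was the highest library in Atp5h and the lowest in Cox6a1, and neither gene passed the test between genotypes.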

How the data were processed

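Raw counts per gene were the only values used. Per the labels, total RNA was depleted of rRNA before library construction. The submitters' processing notes name cutadapt 1.9.3 (a trimmer), HISAT2 2.0.4 (an aligner), HTSeq 0.9.1 (a read counter), edgeR 3.16.5 and the build mm10, and the counts deposited by the authors are whole numbers that are not normalised. For the annotation, strand and multi-mapping settings nothing was stated (not given in the sources used here). Reads of a gene and its antisense partner cannot be told apart. A further 6 columns of normalised values were not used.

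The genotype in the labels defined the groups, and no covariate entered the fit. Low counts were filtered by filterByExpr of edgeR 4.0.16 (R 4.3.3, minimum count 10). Libraries were scaled by TMM and compared by the edgeR quasi-likelihood test with Benjamini-Hochberg adjustment over all genes tested. Standard errors are the absolute log2 difference over the square root of F. CPM use TMM-scaled library sizes. The design allows no exact permutation p under 0.1 for a single value, and no such test was used. DESeq2 1.42.0, limma 3.58.1, another scaling, no filter, GC offsets (natural spline with 5 df per library), a replicate block and leaving out each library were tried, and the fit was tested on simulated data. GC content, transcript length (longest protein-coding transcript) and shared 100-base stretches were taken from the GENCODE M21 annotation of GRCm38 (mm10). Pairs of libraries gave a chi-square of 6.72 to 116 per degree of freedom, above sampling noise, and none were counted as duplicates. Total counts were 8.45 to 12.6 M per library.

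The members, the gene lists and the rule for naming genes were chosen with earlier results of these data known. Named were all mitochondrially encoded genes, called members, and in each group the 2 smallest p, the largest rise and fall and the 2 highest levels per length. Isoforms with their paralogues, the 3 members moved most up and the 3 moved most down by WT replicate 3, and members that failed the filter were also named, except 1 that is not reported here, with up to 2 genes of smallest p in each further list. Cox7c, Ndufb7, Atp5h and the cell type markers stand outside this rule and were named after their values were seen. p-values rest on the spread between 3 libraries per genotype, and the replicate labels do not say whether each came from a single mouse. Differences between mice and between library preparations cannot be told apart in that spread.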

Additional observations from a re-analysis of the deposited data

How the results depend on the processing

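The count of members called higher (1, mt-Co3) was the same under other scalings, no filter, limma-voom, DESeq2, GC correction and leaving out any WT library, and ranged from 0 to 1 when single libraries were left out, with 0 without each 5xFAD replicate. Over 16 alternatives the log2 difference was 1.45 to 1.86 for mt-Co3 (called in 13), -0.82 to -0.18 for mt-Nd3 (called in 2) and -1.16 to 0.28 for mt-Nd4l (called in 1). The count called lower (0) was 1 without WT replicate 3 (mt-Nd3), 1 with scaling that left out mitochondrially encoded genes as well (mt-Nd3), and 1 with GC correction without WT replicate 3 (mt-Nd4l, -1.16). The last 2 settings were chosen after seeing the data. When single libraries were left out, the median log2 difference ranged from -0.50 to 0.049 for complex I, -0.49 to -0.021 for complex II, -0.81 to 0.12 for complex III, -0.74 to 0.0020 for complex IV, -0.67 to 0.0020 for complex V and -0.56 to 0.047 for assembly factors, the upper end always being the fit without WT replicate 3. Scaling that left out mitochondrially encoded genes as well gave -0.021, 0.12, 0.0019, 0.0019 and 0.047 for complexes II to V and assembly factors, and GC correction without WT replicate 3 gave 0.048 for complex III and -0.010 for assembly factors. The median of the 5 mitochondrially encoded genes was 0.28 without WT replicate 2 and -0.49 without WT replicate 3. The difference in the share of these 5 genes ranged from -0.235 to 0.122 percentage points of all counts. Taken of the counts of the members, that share was 5.75 percentage points higher in 5xFAD with all libraries and -4.85 points different, thus lower, without WT replicate 3. Of 41 named and tested members, 12 changed sign without WT replicate 3, none of them called in either fit. The cause of these changes was not tested.

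Same-numbered libraries of the genotypes correlated at 0.094, 0.069 and 0.18 in their deviations, so the numbers were not taken as pairs, although each WT library correlated best with its own number. With the replicate block the median was -0.33 for complex III and -0.22 for complex IV. The count of members called with the block stayed at 1 higher and 0 lower, calls over all genes went from 85 to 120, and with GC correction as well 131 were called. Over all genes 209 were called higher and 9 lower by DESeq2, 320 higher and 67 lower without WT replicate 3, 42 higher without WT replicate 1, and 15 to 23 higher without single 5xFAD libraries. At 8.45 M counts or more, members under about 1 CPM could not be tested.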
